A study of Mus musculus with 12 samples.

Results

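The repressor limb of the circadian clock was examined in mouse fibroblasts with and without BMAL1. It was taken as 8 genes chosen by name, namely the Period genes Per1, Per2 and Per3, the Cryptochrome genes Cry1 and Cry2, Ciart, and the casein kinase 1 genes Csnk1d and Csnk1e. They are 8 of the 49315 genes counted, and 8 of 8 passed the filter on low counts that left 17416 genes for testing. RNA-seq gave gene-level counts for 12 libraries of primary mouse adult fibroblasts (MAFs) derived from the ear. The 4 groups held 3 libraries each. WT control cells came from C57BL/6 mice and were sham irradiated, and WT senescent cells came from the same strain and received 20 Gy of X-rays. KO control and KO senescent cells were handled in the same ways but came from mice with a germline BMAL1 -/- genotype. The study's methods state that irradiated cells were then cultured for some weeks, and they give no such time for control cells. All 4 groups were kept at 3% O2, given 100 nM dexamethasone for 2 h to synchronise the clock, and harvested 12 h later. Because a single time was sampled, a change in the phase of a rhythm and a change in its mean level cannot be told apart. The labels do not say whether libraries of a group came from separate cultures or animals, so p-values measure only the spread between these libraries. By the study's methods the mice were adult females, and a more exact age is not given in the sources used here.

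The mammalian clock is a loop in which BMAL1, paired with CLOCK or NPAS2, activates genes that carry E-box elements, among them those for its own repressors. PER and CRY proteins accumulate, enter the nucleus together and block the activator, and CIART (also called CHRONO) represses it as well. Casein kinases 1 delta and epsilon phosphorylate PER proteins and thereby set how long they last. A second loop joins in through the REV-ERB repressors, encoded by Nr1d1 and Nr1d2, whose targets include Arntl (the gene for BMAL1), Npas2 and Cry1.

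RefSeq promoter windows (GRCm38.p6, 250 bases before to 50 bases after an annotated start) were matched by symbol for 6 of the 8 genes, 10 windows in all. They were searched on both strands for the E-box CACGTG, the variant E-prime box CACGTT, the D-box TTATGTAA bound by the factors DBP, TEF and HLF, the cyclic AMP response element TGACGTCA, the AP-1 site TGACTCA, and a full palindromic glucocorticoid element. These motifs do not overlap one another in the windows of the 8 genes. Of all 32851 promoter windows in the table, 7.15% held the E-box, 4.68% the E-prime box, 0.938% the D-box, 1.79% the cyclic AMP element, 5.2% the AP-1 site and 0.00913% the full glucocorticoid element. The 4 stretches below are shown because they hold the E-boxes and D-boxes found near these genes. Each runs 5′ to 3′ on the strand of the gene, from base -250 to base -31 relative to the start, and the capitals mark E-boxes, E-prime boxes (on either strand) and D-boxes. Ciart, at chr3:95882259-95882478 on the minus strand, carried 3 E-boxes. Cry1, at chr10:85185085-85185304 on the minus strand, carried 1 E-box and 1 E-prime box. The upstream one of 2 Per1 windows, at chr11:69098699-69098918 on the plus strand, carried 1 E-box. Per3, at chr4:151044696-151044915 on the minus strand, carried 2 D-boxes.
Ciart: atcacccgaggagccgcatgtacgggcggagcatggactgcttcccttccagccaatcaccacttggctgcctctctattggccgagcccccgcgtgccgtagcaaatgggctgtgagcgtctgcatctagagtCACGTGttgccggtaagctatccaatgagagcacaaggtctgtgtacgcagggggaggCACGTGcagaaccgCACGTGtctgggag
Cry1: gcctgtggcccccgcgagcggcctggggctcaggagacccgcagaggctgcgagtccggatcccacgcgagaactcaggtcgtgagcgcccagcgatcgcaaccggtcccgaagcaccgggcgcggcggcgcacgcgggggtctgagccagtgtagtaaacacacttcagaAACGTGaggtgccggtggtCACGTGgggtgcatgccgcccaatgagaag
Per1: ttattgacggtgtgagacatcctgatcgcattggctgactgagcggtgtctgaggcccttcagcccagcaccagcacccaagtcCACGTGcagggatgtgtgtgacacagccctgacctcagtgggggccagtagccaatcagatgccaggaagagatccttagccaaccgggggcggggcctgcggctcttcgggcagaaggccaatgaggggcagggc
Per3: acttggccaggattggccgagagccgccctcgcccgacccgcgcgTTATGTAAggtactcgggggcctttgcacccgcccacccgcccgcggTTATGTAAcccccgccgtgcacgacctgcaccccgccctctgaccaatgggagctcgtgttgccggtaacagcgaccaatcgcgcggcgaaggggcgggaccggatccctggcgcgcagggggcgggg

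The Cry2 window held 1 E-prime box, and no searched motif was found in the downstream Per1 window or in the 4 Csnk1e windows. Per2 and Csnk1d were not matched to a window. These matches describe the letters of the windows and say nothing of whether a factor was bound there.

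**Figure D1:**
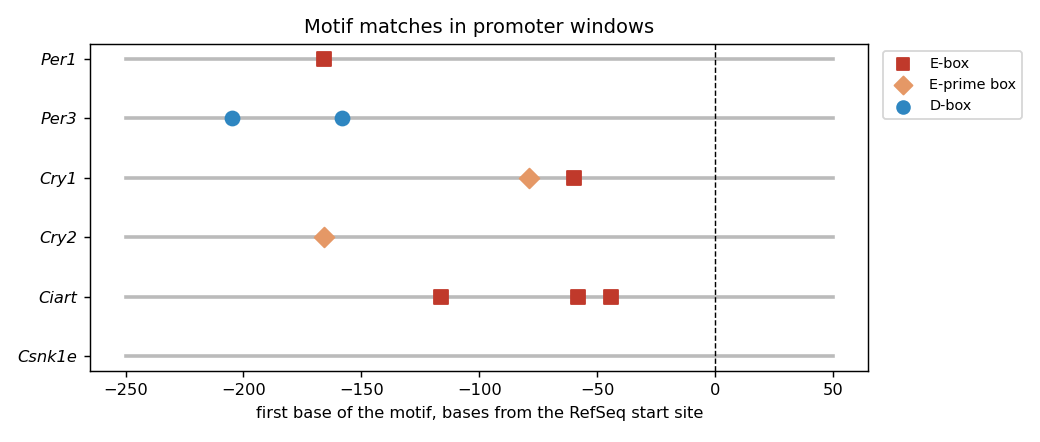
Positions of motif matches in promoter windows of 6 clock repressor genes, with the distance in bases from the RefSeq start site (dashed line) on the x axis and 1 row per gene. Grey bars are the windows searched, squares are E-boxes, diamonds E-prime boxes and circles D-boxes. Ciart has E-boxes at -116, -58 and -44, Per3 has D-boxes and no E-box, and Csnk1e has no match.

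Libraries held 23923030 to 31736083 counts, and replicates of a group correlated at r = 0.984 to 0.992 over genes. Arntl, the targeted gene, was read at 29.8 to 33.2 CPM (counts per 1000000 counts of the library) in WT control, 35.2 to 37.3 in WT senescent, 11.8 to 15.2 in KO control and 25.3 to 27.4 in KO senescent libraries, so its gene-level count was lower in each KO group but was far from 0. A count over all exons does not show whether the deleted part was read. The paper reports that the Bmal1 transcript was lost in its KO cells, which gene-level counts cannot check. Of 4 senescence markers, 3 moved in both genotypes and the other passed in KO cells but not in WT cells. The cell cycle inhibitor gene Cdkn1a rose 3.78-fold in WT and 3.09-fold in KO, the nuclear lamina gene Lmnb1 fell 9.18-fold and 9.88-fold, and the proliferation marker Mki67 fell 13-fold and 22-fold (each adjusted p = 6.79e-07 or smaller, edgeR's quasi-likelihood test). Cdkn2a, which encodes the cell cycle inhibitor p16 and was added after its values were seen, was at 2.52 to 4.24 CPM in WT control, 2.79 to 3.77 in WT senescent, 3.43 to 4.74 in KO control and 7.09 to 12.5 in KO senescent libraries. It rose in KO cells (1.26 ± 0.22 on the log2 scale, adjusted p = 5.05e-05) and did not pass in WT cells (-0.11 ± 0.23, adjusted p = 0.723), with an interaction of 1.36 ± 0.32 (adjusted p = 0.00473). By qPCR, the paper reports that p16 expression rose in irradiated cells of both genotypes. A gene-level count does not separate the transcripts of Cdkn2a, so it does not show that p16 was unchanged in WT cells. All 10 fibroblast markers were detected, with a summed level of 20022 to 20832 CPM in WT control, 9857 to 10268 in WT senescent, 24988 to 26349 in KO control and 11740 to 12163 in KO senescent libraries. The sums fell with senescence although the markers were split. In WT cells 6 of the 10 rose and 4 fell (median log2 change 0.44), where 29.2% and 27% of all tested genes did. In KO cells 3 rose and 5 fell (median -0.16), against 28.5% and 28.6%. Between control cells 6 of the 10 were higher and 1 lower in KO, against 8.07% and 4.96% of all tested genes. Between senescent cells 3 were higher and 4 lower in KO, against 11.9% and 11.8%. The interaction passed upward for 1 and downward for 6, against 9.24% and 11.7%. Summed levels of 8 chondrocyte markers were 8739 to 10801 CPM in WT control, 2662 to 3088 in WT senescent, 5954 to 8267 in KO control and 886 to 1084 in KO senescent libraries, with Matn1 at 0 in WT control. All 7 of these markers that were tested fell with senescence in both genotypes, where 27% of all tested genes did in WT and 28.6% in KO. All 7 were also lower in KO senescent than in WT senescent cells, against 11.8% (median log2 difference -1.62). Their interaction was negative and passed for all 7, against 11.7%. Between control cells 2 of the 7 were lower in KO, against 4.96%. The part of the fibroblast and chondrocyte markers in the results was not tested. Summed markers of keratinocytes, macrophages, endothelium, melanocytes and adipocytes reached at most 23 CPM in any library, and those of skeletal muscle 58.5 CPM. In bulk RNA, fewer cells of a type and less RNA per cell cannot be told apart. WT control replicate 3 stood apart from the other 2 WT control libraries on principal components 2 and 4 (9.95% and 4.57% of the variance). On component 2 it was at 4.14, against -23.4 and -26.8 for those 2 and 12.6 to 30 for KO control libraries. On component 3 (6.41%) it was at 11 against 27.9 and 23.9, and on component 4 at 45 against -10.5 and -16. Results of the repressor genes that rest on this library are given with and without it. Each deposited table held 1 genotype, so the table and the genotype cannot be told apart in comparisons of KO with WT.

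Cry1 and Per2 were the repressor genes with the largest differences between genotypes, and both were higher in KO cells whether or not the cells were senescent. Cry2 and Ciart were also higher in KO cells, by less. Per1, Per3 and both kinase genes did not pass between control cells, and among senescent cells Per3 was lower and Csnk1e higher in KO. In control cells, 4 of the 8 genes were higher in KO at an adjusted p under 0.05 and 0 were lower by edgeR's quasi-likelihood test (also 0 lower at an unadjusted p under 0.05, with DESeq2 and with limma voom), where 8.07% of all tested genes passed as higher and 4.96% as lower. Of those 4, 2 also differed by more than 1 on the log2 scale, as did 2.54% of all tested genes in either direction. In senescent cells, 5 were higher and 1 was lower in KO, against 11.9% and 11.8% of all tested genes, and 3 passed the larger threshold, against 3.48%. The median log2 difference over the 8 genes was 0.47 in control cells and 0.54 in senescent cells, beside 0.01 and -0.02 over all tested genes.

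Cry1 (ENSMUSG00000020038, GRCm38 chromosome 10, 85131700 to 85185064, minus strand) encodes the Cryptochrome known as the stronger transcriptional repressor of the pair. WT control libraries held 10.7, 8.14 and 9.93 CPM (replicates 1 to 3, the order used throughout) and WT senescent libraries 10.5, 9.65 and 9.1 CPM. KO control libraries held 46.5, 44.5 and 46.4 CPM and KO senescent libraries 57.2, 52.8 and 57.8 CPM. Every KO library was above every WT library, and the WT control and WT senescent libraries overlapped. KO control cells held 4.78-fold more Cry1 than WT control cells (log2 difference 2.26 ± 0.09 SE, adjusted p = 2.36e-13, edgeR's quasi-likelihood test), and KO senescent cells held 5.73-fold more than WT senescent cells (2.52 ± 0.08 SE, adjusted p = 4.75e-14). With senescence, Cry1 rose in KO cells by 0.29 ± 0.07 on the log2 scale (adjusted p = 0.00244), and in WT cells its change was 0.03, with a 95% interval of -0.17 to 0.22. The difference between these responses was 0.26 ± 0.12 and did not pass (adjusted p = 0.137), although it did without WT control replicate 2 (0.37, adjusted p = 0.0244), the lowest of the WT control libraries.

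Cry2 (ENSMUSG00000068742, chromosome 2, 92403646 to 92434043, minus strand), the other Cryptochrome gene, had 28.5, 37.1 and 32 CPM in the WT control libraries and 33.7, 34.9 and 35.4 CPM once these cells were senescent. In KO cells it had 50.9, 58.5 and 50.1 CPM in control and 67.2, 63.2 and 66.7 CPM in senescent libraries. The KO libraries again lay wholly above the WT ones, and the 2 KO groups did not overlap each other. Cry2 was 1.64-fold higher in KO control than in WT control cells (log2 0.71 ± 0.08, adjusted p = 2.54e-06) and 1.9-fold higher in KO senescent than in WT senescent cells (0.92 ± 0.08, adjusted p = 4.46e-08). It rose with senescence in KO cells (0.30 ± 0.08, adjusted p = 0.00196). In WT cells its change of 0.09 did not pass (95% interval -0.08 to 0.26), but it passed when libraries were scaled to total counts alone (0.26, adjusted p = 0.0096) or when WT control replicate 2 was left out (0.20, adjusted p = 0.0414), and it was at -0.00034 without WT control replicate 1. Exons of Cry2 share 295 bases with D930015M05Rik on the other strand, which had 389 counts over all libraries against 709 or more for Cry2 in each. Strand use in counting is not given in the sources used here, so reads from these bases cannot be assigned to either gene.

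**Figure D2:**
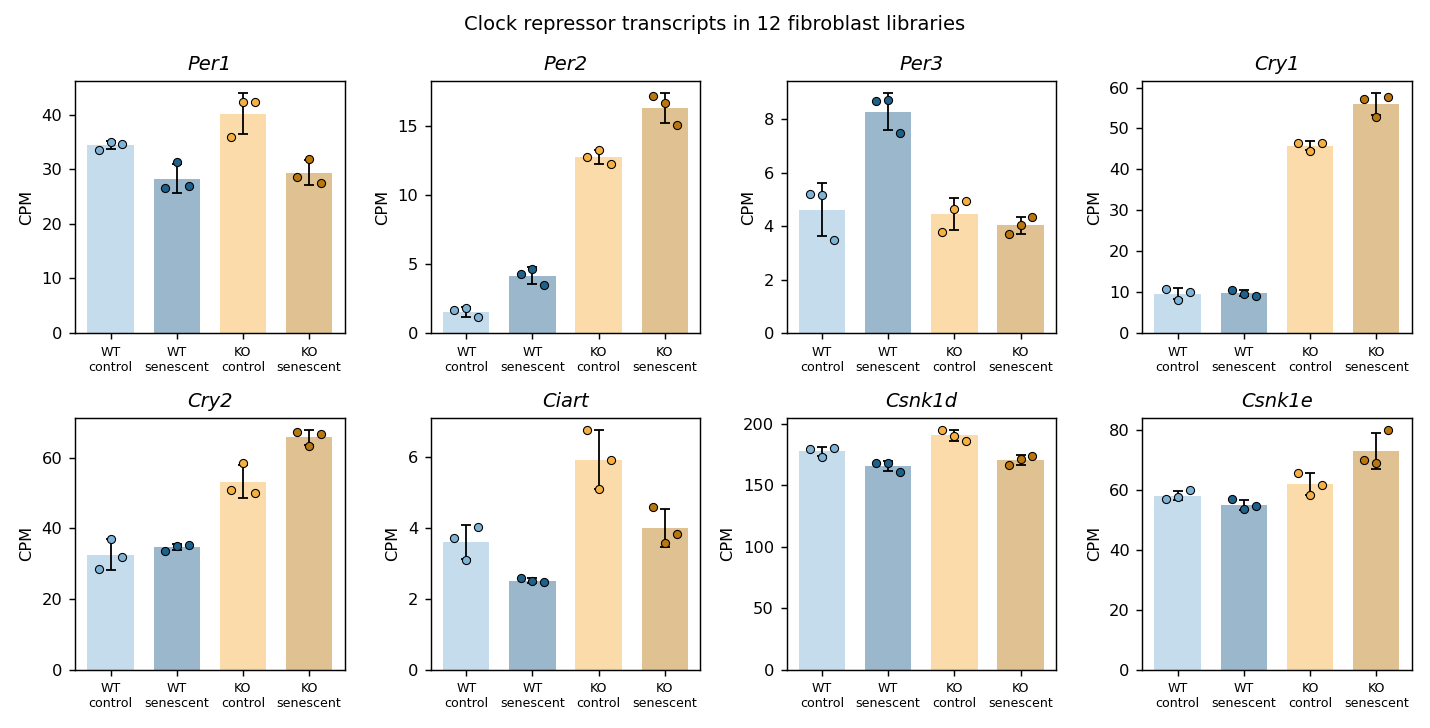
Level of each of the 8 clock repressor transcripts in CPM (y axis, from 0 and scaled per gene) in the 4 groups on the x axis. Points are libraries, bars are means and error bars are SD (n = 3). Per2, Cry1 and Cry2 lie higher in every KO library than in any WT library, Per3 stands highest in WT senescent cells at 7.48 to 8.71 CPM, and Csnk1e stands highest in KO senescent cells.

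Per2 (ENSMUSG00000055866, chromosome 1, 91415982 to 91459324, minus strand) encodes a Period protein that carries CRY into the nucleus. It was the Period gene with the lowest level in WT control cells, at 1.69, 1.79 and 1.13 CPM (25 to 44 counts). WT senescent libraries held 4.32, 4.68 and 3.51 CPM, KO control libraries 12.8, 13.3 and 12.3, and KO senescent libraries 17.2, 16.7 and 15.1. The 4 groups did not overlap at any step of this order. Per2 was 8.25-fold higher in KO control than in WT control cells (log2 3.04 ± 0.16, adjusted p = 2.43e-11, edgeR's quasi-likelihood test) and 3.9-fold higher in KO senescent than in WT senescent cells (1.96 ± 0.13, adjusted p = 2.03e-09). It rose with senescence 2.7-fold in WT cells (1.43 ± 0.17, adjusted p = 3.12e-07) and 1.28-fold in KO cells (0.35 ± 0.12, adjusted p = 0.0189). The KO response was smaller than the WT response by 1.08 on the log2 scale (interaction -1.08 ± 0.21, adjusted p = 0.0011). Without WT control replicate 3, the lowest library, the WT rise was 1.26 (adjusted p = 3.75e-06), the interaction was -0.92 (adjusted p = 0.00428) and the difference between control cells was 2.88. The KO rise no longer passed without KO control replicate 3, KO senescent replicate 1 or KO senescent replicate 2 (0.32 to 0.33, adjusted p = 0.0576 to 0.0739).

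Per3 (ENSMUSG00000028957, chromosome 4, 151003652 to 151044665, minus strand) encodes the Period protein that is least needed for rhythm, and its pattern ran apart from that of Per2. It was read at 5.22, 5.17 and 3.47 CPM in control and 8.67, 8.71 and 7.48 CPM in senescent WT libraries. In KO libraries it was read at 3.8, 4.64 and 4.93 CPM (control) and 3.7, 4.04 and 4.35 CPM (senescent). The WT senescent libraries lay above all others, and the remaining 3 groups overlapped. Per3 rose 1.79-fold with senescence in WT cells (log2 0.84 ± 0.16, adjusted p = 0.000175), or by 0.67 without WT control replicate 3 (adjusted p = 0.00121). In KO cells the change was -0.14 with a 95% interval of -0.50 to 0.21, and it was 0.0105 under scaling to total counts alone. The interaction was -0.98 ± 0.24 (adjusted p = 0.00544), and -0.82 without WT control replicate 3 (adjusted p = 0.0115). KO senescent cells held 2.05-fold less Per3 than WT senescent cells (-1.04 ± 0.16, adjusted p = 8.44e-05), whereas the difference between control cells was -0.06 with a 95% interval of -0.41 to 0.30.

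Per1 (ENSMUSG00000020893, chromosome 11, 69095217 to 69109960, plus strand), a Period gene that also responds at once to glucocorticoids and cyclic AMP, reached 33.6, 35 and 34.6 CPM in the control and 26.6, 31.4 and 26.9 CPM in the senescent WT libraries. The corresponding KO values were 35.9, 42.4 and 42.4 CPM (control) and 28.6, 31.9 and 27.5 CPM (senescent). Senescent libraries were below control libraries in both genotypes, with no overlap, and the 2 senescent groups overlapped. Per1 fell with senescence 1.22-fold in WT cells (log2 -0.28 ± 0.08, adjusted p = 0.006) and 1.37-fold in KO cells (-0.46 ± 0.08, adjusted p = 5.86e-05). The WT fall depended on scaling and was -0.20 with upper-quartile factors (adjusted p = 0.0548) and -0.11 with total counts alone (adjusted p = 0.248). The responses did not differ detectably (interaction -0.17, 95% interval -0.41 to 0.07). The KO and WT control cells differed by 0.23 ± 0.08, which missed the threshold (adjusted p = 0.0728) but passed with no filter on low counts (adjusted p = 0.0325) and without KO control replicate 1 (0.30, adjusted p = 0.0129). The senescent cells differed by 0.05 (95% interval -0.12 to 0.22).

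Ciart (ENSMUSG00000038550, chromosome 3, 95878503 to 95882251, minus strand), whose window holds the 3 E-boxes printed above, was expressed weakly, from 64 to 169 counts per library. WT cells held 3.7, 3.09 and 4.02 CPM as controls and 2.58, 2.49 and 2.47 CPM when senescent, and KO cells held 6.76, 5.08 and 5.92 CPM as controls and 4.59, 3.58 and 3.81 CPM when senescent. WT senescent libraries were lowest and KO control libraries highest, with WT control and KO senescent libraries overlapping between them. Ciart was 1.64-fold higher in KO control than in WT control cells (log2 0.72 ± 0.17, adjusted p = 0.00816) and 1.59-fold higher in KO senescent than in WT senescent cells (0.66 ± 0.18, adjusted p = 0.00956), the latter missing the threshold without KO senescent replicate 1 (0.56, adjusted p = 0.0513). With senescence it fell 1.43-fold in WT (-0.52 ± 0.18, adjusted p = 0.0211) and 1.48-fold in KO cells (-0.57 ± 0.17, adjusted p = 0.00738). The WT fall did not pass when replicate 1 or 3 of the WT controls, or replicate 2 or 3 of the WT senescent libraries, was left out (-0.51 to -0.43, adjusted p = 0.053 to 0.0745), nor with total counts alone (-0.35, adjusted p = 0.109). The interaction was -0.05, with a 95% interval of -0.57 to 0.47.

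The kinase genes stayed within narrow ranges. Csnk1d (ENSMUSG00000025162, chromosome 11, 120961749 to 120991330, minus strand), for casein kinase 1 delta, was at 173 to 180 CPM in WT control, 161 to 168 in WT senescent, 186 to 195 in KO control and 166 to 174 in KO senescent libraries. It fell by 0.16 ± 0.05 on the log2 scale with senescence in KO cells (adjusted p = 0.00613), although this was lost with upper-quartile factors (-0.0767, adjusted p = 0.122) or total counts alone (-0.00568, adjusted p = 0.924). In WT cells the change of -0.10 (± 0.05 SE) had an adjusted p = 0.0783, passed with DESeq2 (adjusted p = 0.0278) and with only the 6 WT libraries (adjusted p = 0.00867), and turned to 0.0705 with total counts alone. Csnk1d exons share 63 bases with the antisense gene Gm28192, which had 910 counts over all libraries, against 3992 or more for Csnk1d in each.

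Csnk1e (ENSMUSG00000022433, chromosome 15, 79417856 to 79455566, minus strand), for casein kinase 1 epsilon, was at 57 to 59.9 CPM in WT control, 53.6 to 57 in WT senescent, 58.4 to 65.8 in KO control and 70.1, 69.2 and 80.2 in KO senescent libraries. The KO senescent libraries were above all others and the rest lay close together, with WT control overlapping KO control and meeting WT senescent at 57 CPM. Csnk1e was 1.33-fold higher in KO senescent than in WT senescent cells (log2 0.41 ± 0.06, adjusted p = 5.99e-05), and the control cells differed by 0.09 (95% interval -0.04 to 0.22). It rose with senescence in KO cells (0.24 ± 0.06, adjusted p = 0.00246). In WT cells its change was -0.08 (95% interval -0.21 to 0.06), which was 0.00904 with upper-quartile factors and 0.0925 with total counts alone. The interaction was 0.32 ± 0.09 (adjusted p = 0.0145), and it did not pass without KO control replicate 2 (0.27, adjusted p = 0.0569). The antisense gene Gm16059, with 106 counts over all libraries, shares 267 bases with Csnk1e exons.

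**Figure D3:**
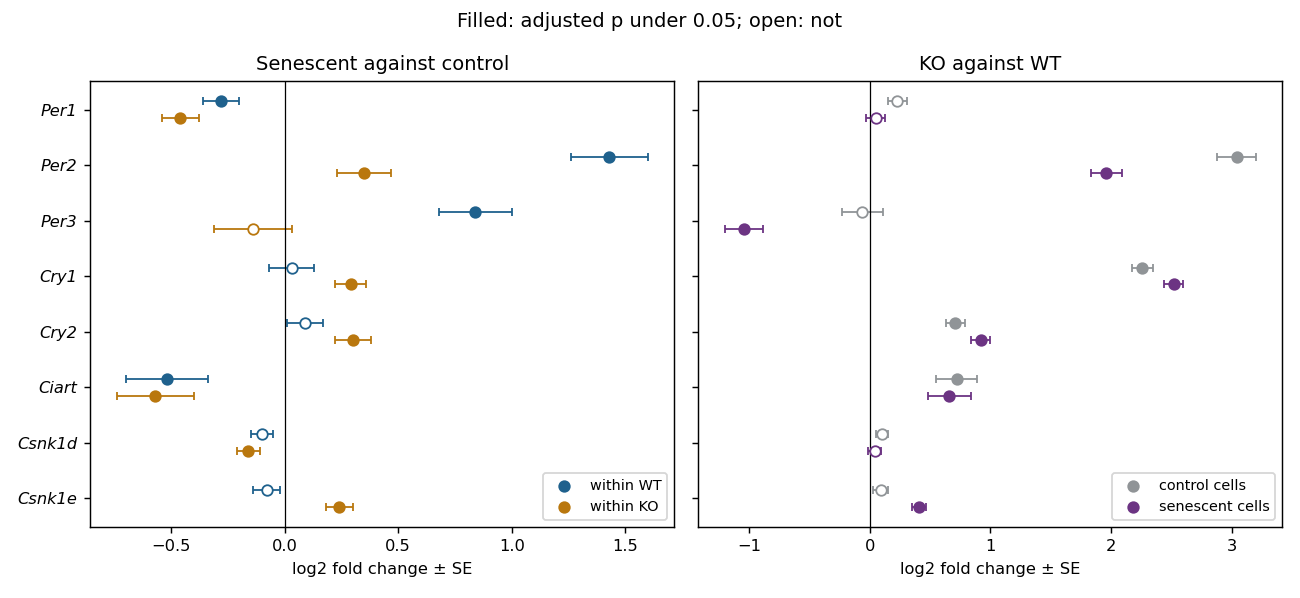
Log2 fold change ± SE (x axis) of the 8 clock repressor genes (rows). The left panel compares senescent with control cells within WT and within KO, and the right panel compares KO with WT in control and in senescent cells. Filled points passed an adjusted p under 0.05 and open points did not. Per2, Cry1, Cry2 and Ciart lie to the right of 0 in both KO against WT comparisons. The points of Csnk1d and Csnk1e in WT (left) and of Per3 in KO (left) cross 0 with total counts alone.

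Read by comparison, the senescence changes of the 8 repressor genes ran from -0.52 to 1.43 on the log2 scale in WT and from -0.57 to 0.35 in KO cells. In WT cells 2 of 8 rose and 2 fell, where 29.2% and 27% of all tested genes did, and 1 of 8 changed by more than 1 on the log2 scale, against 17.4%. In KO cells 4 rose and 3 fell, against 28.5% and 28.6%, and 0 of 8 exceeded 1 (also 0 with DESeq2 and limma voom), against 18.8%. The difference between the genotypes in the response passed for 1 gene upward and 2 downward, against 9.24% and 11.7%, and exceeded 1 for 1 gene, against 3.66%. Scaling to total counts alone shifted the median of all genes to 0.194 in WT and 0.15 in KO cells, from 0.0245 and -0.00275. Under that scaling 7000 genes were higher and 3213 lower in WT senescent cells, in place of 5093 and 4702, and 6703 and 3618 in KO senescent cells, in place of 4964 and 4983. Between the senescent groups 1718 genes were higher and 2571 lower in KO, in place of 2080 and 2050, and with upper-quartile factors the WT senescence split was 6030 and 3923.

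Levels of different genes were compared per length, as RPKM, the CPM divided by kilobases of exon. In WT control cells Csnk1d was highest at 35.3 ± 0.754 RPKM (mean ± SD, n = 3), followed by Csnk1e at 8.83 ± 0.234, Per1 at 6.11 ± 0.127, Cry2 at 5.15 ± 0.685, Cry1 at 2.87 ± 0.392, Ciart at 1.59 ± 0.207, Per3 at 0.481 ± 0.103 and Per2 at 0.262 ± 0.0609. In KO control cells the order was Csnk1d at 37.9 ± 0.852, Cry1 at 13.7 ± 0.345, Csnk1e at 9.41 ± 0.569, Cry2 at 8.41 ± 0.73, Per1 at 7.14 ± 0.666, Ciart at 2.62 ± 0.37, Per2 at 2.18 ± 0.0873 and Per3 at 0.464 ± 0.0614. Cry1 therefore moved from below Cry2 and Per1 to above both, and Per2 from below Per3 to above it. Libraries of neighbours in this order did not overlap in WT control cells, while in KO control cells Csnk1e overlapped Cry2 and Ciart overlapped Per2.

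The make-up of each family changed accordingly, which is given here as a description without a test. Cry1 made 29.3% to 41.5% of the summed Cryptochrome RPKM in WT control and 32.7% to 37% in WT senescent libraries, but 59% to 63.7% in KO control and 61.2% to 62.1% in KO senescent libraries. The Cryptochrome sum was 7.71 to 8.31 RPKM in WT control, 8.33 to 8.47 in WT senescent, 21.8 to 22.6 in KO control and 25.8 to 27.9 in KO senescent libraries. The Cryptochrome pool was thus larger in every KO library, and its leading transcript was Cry1 in place of Cry2. Per2 made 2.87% to 4.33% of the Period RPKM in WT control, 9.73% to 11.6% in WT senescent, 20.7% to 24.3% in KO control and 31.9% to 34.9% in KO senescent libraries, and Per1 was the main Period transcript in each library at 60.5% or more. The Period sum moved less, at 6.7 to 7.06 RPKM in WT control, 6.15 to 7.28 in WT senescent, 8.95 to 10.3 in KO control and 7.92 to 8.93 in KO senescent libraries. Csnk1d made 79.5% to 81.1% of the kinase pair in the other 3 groups and 74% to 76.4% in KO senescent libraries.

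**Figure D4:**
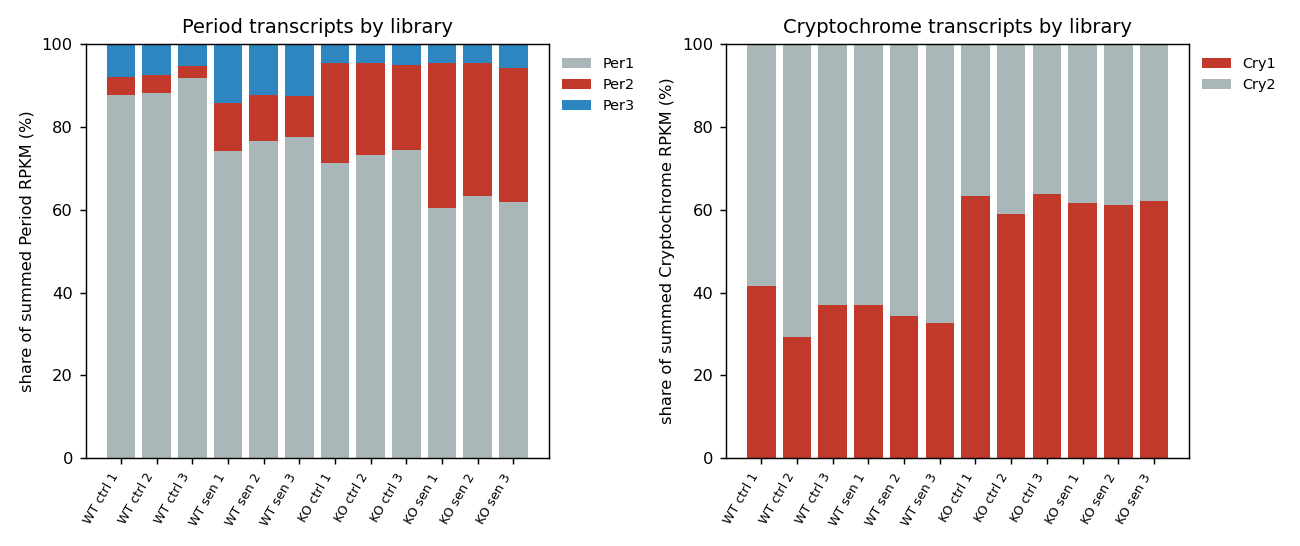
Share (%, y axis) of each transcript in the summed RPKM of its family in each of the 12 libraries (x axis, ctrl for control and sen for senescent). The left panel shows the 3 Period genes and the right panel the 2 Cryptochrome genes. Per2 makes at most 4.33% of the Period sum in WT control libraries and at least 31.9% in KO senescent ones, and Cry1 makes at most 41.5% of the Cryptochrome sum in WT libraries and at least 59% in KO libraries.

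The activators and outputs of the same clock, 14 genes all of which were tested, were set beside the repressors. KO control cells had 4 of the 14 higher and 4 lower than WT control cells, where 8.07% and 4.96% of all tested genes were (median log2 difference -0.03, all tested genes 0.01), and KO senescent cells had 4 higher and 3 lower than WT senescent cells, against 11.9% and 11.8% (median -0.03, all tested genes -0.02). The REV-ERB genes Nr1d1 and Nr1d2 were among the lowest. Nr1d1 was at 15.2 to 20.7 CPM in WT control and 3.86 to 4.64 CPM in KO control libraries (log2 -2.12 ± 0.11, adjusted p = 4.16e-11), and Nr1d2 was at 23.4 to 24.4 and 5.84 to 6.44 CPM (-1.98 ± 0.10, adjusted p = 2.07e-11). In senescent cells Nr1d1 was at 32.6 to 33.7 CPM in WT and 11.8 to 12.5 CPM in KO libraries (-1.45 ± 0.10, adjusted p = 1.71e-09), and Nr1d2 was at 31.3 to 38.1 CPM in WT and 5.17 to 6.55 CPM in KO libraries (-2.54 ± 0.10, adjusted p = 4.29e-13). Npas2, which can stand in for CLOCK, was higher in KO cells in both states. In control cells it was at 12.1 to 16.2 CPM in KO against 3.84 to 4.34 in WT libraries (1.79 ± 0.14, adjusted p = 1.91e-08). In senescent cells it was at 11.4 to 15.3 CPM in KO against 4 to 4.59 in WT libraries (1.59 ± 0.14, adjusted p = 7.45e-08). The differences ran both ways within this list, while those of the repressor genes that passed in control cells were all upward.

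With senescence, 7 of these 14 genes rose and 3 fell in WT cells, where 29.2% and 27% of all tested genes did (median 0.15, all tested genes 0.02), and 5 rose and 1 fell in KO cells, against 28.5% and 28.6% (median 0.12, all tested genes -0.00275). The largest WT rises were in Dbp, a D-box factor (1.31 ± 0.22, adjusted p = 4.08e-05), and Rora, which activates Arntl (1.08 ± 0.11, adjusted p = 1.94e-07). The largest KO rises were in Nr1d1 (1.54 ± 0.12, adjusted p = 3.13e-10) and Arntl itself (1.02 ± 0.09, adjusted p = 1.96e-09). The Arntl values are gene-level counts, which in KO cells do not show whether intact transcript was present. The response differed between genotypes for 6 of the 14, of which 5 are named here (9.24% of all tested genes passed upward and 11.7% downward). It was smaller in KO cells for Dbp (interaction -1.11 ± 0.31, adjusted p = 0.0142), Tef (-0.57 ± 0.10, adjusted p = 0.000668) and Nr1d2 (-0.57 ± 0.14, adjusted p = 0.00703), and larger for Arntl (0.82 ± 0.12, adjusted p = 7.58e-05) and Nr1d1 (0.67 ± 0.15, adjusted p = 0.00344). Without WT control replicate 3, Dbp rose by 1.07 in WT cells (adjusted p = 0.000163) and its interaction was -0.87 (adjusted p = 0.0276). Without KO control replicate 2 the Dbp interaction no longer passed (-0.88, adjusted p = 0.0554).

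**Figure D5:**
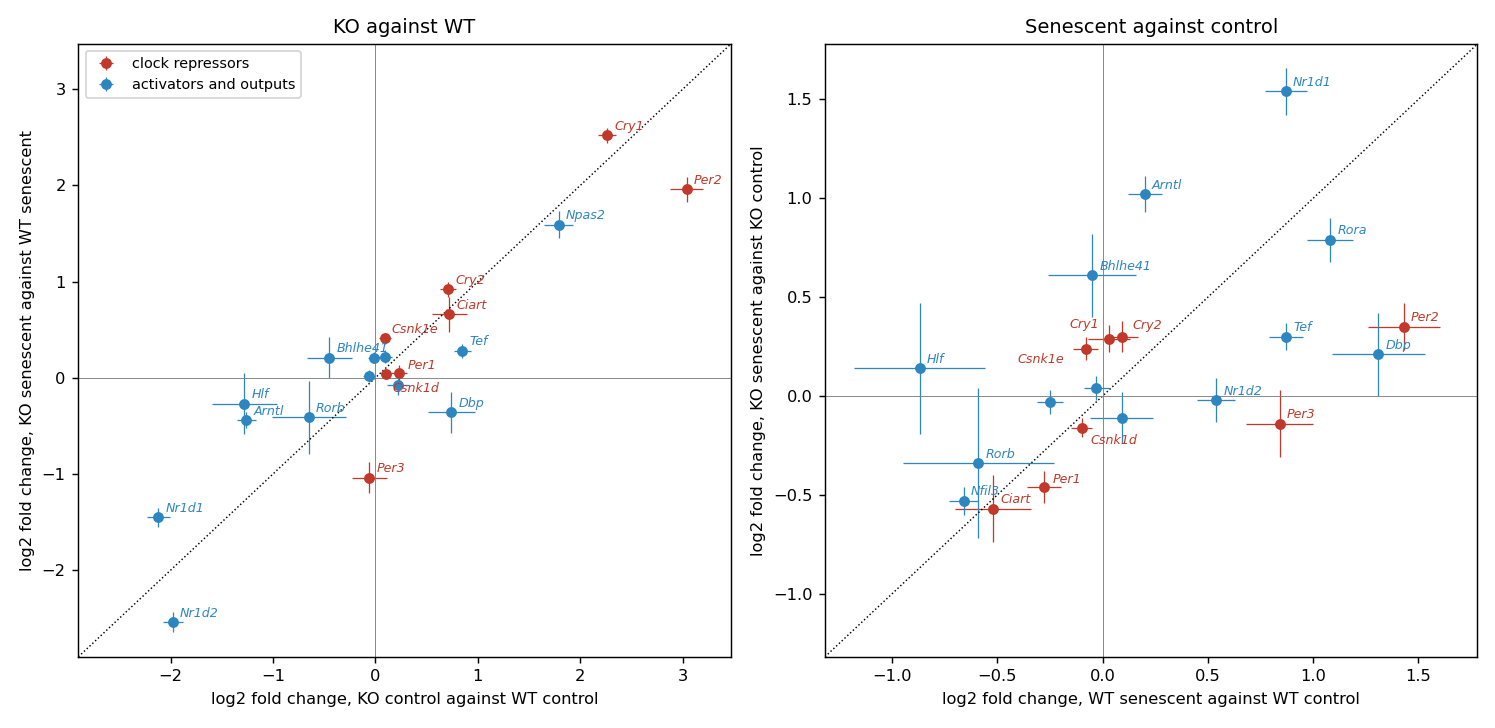
Log2 fold changes (± SE) of the 8 clock repressor genes (red) and of activator and output genes (blue). The left panel plots KO against WT in control (x axis) and senescent cells (y axis), and the right panel plots senescent against control cells in WT (x axis) and KO (y axis), with the dotted line at equal values. Blue points under 0.3 in size on both axes are not named. Cry1 and Per2 lie far to the upper right and Nr1d1 and Nr1d2 to the lower left of the left panel, and Per2, Per3 and Dbp fall below the line in the right panel, where Per3 in KO, and Csnk1d and Csnk1e in WT, cross 0 with total counts alone.

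Proteins that act in the turnover of PER and CRY were listed as 12 genes, all tested. In WT cells 5 rose and 5 fell with senescence, where 29.2% and 27% of all tested genes did (median -0.02, all tested genes 0.02), and in KO cells 4 rose and 4 fell, against 28.5% and 28.6% (median -0.01, all tested genes -0.00275). Under total counts alone the splits were 6 and 2 in WT and 7 and 1 in KO cells. The largest rises in both genotypes were in Prkaa2 and Fbxl21. Prkaa2, for a catalytic subunit of AMP kinase, which phosphorylates CRY1, was at 1.4 to 2.49 CPM in WT control, 5.78 to 7.03 in WT senescent, 0.919 to 1.03 in KO control and 5.55 to 7.29 in KO senescent libraries. Prkaa2 rose by 1.68 ± 0.20 in WT (adjusted p = 2.84e-07) and 2.67 ± 0.22 in KO cells (adjusted p = 9.35e-10), it was lower in KO control than in WT control cells (-1.04 ± 0.24, adjusted p = 0.00539), and its interaction was 0.99 ± 0.30 (adjusted p = 0.0218), which did not pass without WT control replicate 1, WT senescent replicate 3 or KO senescent replicate 3 (adjusted p up to 0.0814). Fbxl21, an F-box gene for a CRY ligase, was at 0.281 to 0.732 CPM in WT control and 1.38 to 1.94 in WT senescent libraries (1.75 ± 0.43, adjusted p = 0.0017), and rose by 2.31 ± 0.43 in KO cells (adjusted p = 0.000109), from as few as 2 counts in a KO control library. Fbxw11, for a PER ligase subunit, had an interaction of 0.23 ± 0.07 (adjusted p = 0.026; 0.0558 without WT control replicate 3) and was higher in KO senescent than in WT senescent cells by 0.21 (adjusted p = 0.00415). Between genotypes, 1 of the 12 genes was lower in KO in control cells, against 4.96% of all tested genes, and 2 were higher in senescent cells, against 11.9%. Fbxl21 did not pass in either, at -0.21 ± 0.51 and 0.35 ± 0.36.

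Partners reported in the nuclear PER-CRY repressor complex were listed as 11 genes, all tested, and each of the 11 fell with senescence in both genotypes, where 27% of all tested genes did in WT and 28.6% in KO cells (median -0.62 in WT and -0.64 in KO, beside 0.0245 and -0.00275 over all tested genes). Under total counts alone all 11 stayed lower in value, and 10 passed in each genotype. Many of these proteins also serve DNA replication, chromatin or RNA processing. The largest falls were in Timeless, a replication fork protein, from 38.1 to 42.6 CPM in WT control to 7.95 to 8.58 in WT senescent and from 36.9 to 41.7 CPM in KO control to 6.21 to 6.63 in KO senescent libraries. Timeless fell by 2.29 on the log2 scale in WT (-2.29 ± 0.08, adjusted p = 2.08e-15) and 2.62 in KO cells (-2.62 ± 0.08, adjusted p = 3.89e-16). Suv39h1, a histone methyltransferase gene, fell next most, at -1.32 ± 0.11 and -1.30 ± 0.11 (adjusted p = 2.12e-08 and 2.71e-08). The proliferation marker Mki67 moved in the same direction in these libraries, and its part in these falls was not tested. In control cells 0 of the 11 differed between genotypes by edgeR's quasi-likelihood test, DESeq2 or limma voom (1 was lower in KO at an unadjusted p under 0.05), with Sfpq at -0.12 (adjusted p = 0.183) and Suv39h1 at -0.10 (adjusted p = 0.617) the furthest from 0. In senescent cells 2 were higher and 3 lower in KO, against 11.9% and 11.8% of all tested genes, with Timeless at -0.36 ± 0.09 (adjusted p = 0.00602) and the deacetylase gene Hdac1 at -0.23 (adjusted p = 0.00188).

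The genes whose log2 CPM followed each repressor gene most closely over the 12 libraries were sought among 10944 other genes that averaged 5 CPM or more (10945 for Ciart). Pearson's r is given as a description, since the points share libraries and fall into 4 groups. Per2 was followed by Syt13 (r = 0.99) and Ly6c1 (r = 0.981), Cry1 by Plat (r = 0.988) and Rps4l (r = 0.988, a gene with a close ribosomal protein copy, so its count is uncertain), and Cry2 by Chpf (r = 0.96) and Kremen1 (r = 0.956). Per1 was followed by Cdsn (r = 0.968) and Psd3 (r = 0.951), Per3 by Casp4 (r = 0.933) and Maf (r = 0.927), and Ciart by Ide (r = 0.971). Among the repressor genes themselves, Per2, Cry1 and Cry2 had r = 0.918 to 0.941 with one another, whereas Per1 had r = 0.0626 with Per2 and Per3 had r = -0.276 with Per2.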

How the data were processed

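Poly(A) RNA libraries (NEBNext Ultra II) were sequenced on a HiSeq. Per the submitters' processing notes, bcl2fastq 2.17, Trimmomatic 0.36 and STAR 2.5.2b were used with GRCm38. The authors deposited raw counts of uniquely mapped reads over exons (featureCounts), 1 table per genotype, and computed differential expression with DESeq2. Strand use and annotation release are not given in the sources used here. Symbols were matched for 48970 of 49315 identifiers.

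Here counts were fitted over all 12 libraries with edgeR 4.0.16 in R 4.3.3 (filterByExpr, TMM factors, robust quasi-likelihood fit, 1 mean per group) and p-values were adjusted by the Benjamini-Hochberg method over 17416 genes in each of 5 comparisons. Adjusted p-values are from that fit except where DESeq2 is named. The interaction is the KO less the WT senescence log2 fold change. CPM use TMM-scaled totals, and RPKM divide them by the union of GENCODE exons. Errors of log2 values are SE. A further threshold, a log2 change over 1 in size, follows the study. The code was tested on simulated data. Alternatives used DESeq2 1.42.0, limma 3.58.1, other scalings and filters, the compared libraries alone, a replicate block, and each library left out.

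The 8 genes, their lists and the tests were chosen with earlier results of these data known. Named beside the 8 genes were the targeted gene, 3 senescence checks, list genes whose interaction passed, the 2 list genes with the largest change in each comparison of 2 groups, the 2 closest genes in pattern, and glucocorticoid-response genes. Some genes that this rule gave are not reported here. TMM factors were 0.926 to 1.07. Precision was limited for Per2 (25 to 44 counts in WT control) and Ciart.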

Additional observations from a re-analysis of the deposited data

Results flagged for a closer look

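For these 15 genes the senescence response differed between KO and WT cells by the interaction test of edgeR at an adjusted p under 0.05, given here as the KO less the WT log2 fold change. Among the repressor genes these were Per2 (-1.08), Per3 (-0.98) and Csnk1e (0.32). Among activators and outputs they were Arntl (0.82), Nr1d1 (0.67), Nr1d2 (-0.57), Dbp (-1.11) and Tef (-0.57). Among genes of PER and CRY turnover they were Fbxw11 (0.23) and Prkaa2 (0.99). Among repressor complex partners, all of which fell in both genotypes, the value was positive for Wdr5 (0.27) and negative for Timeless (-0.33), Hdac1 (-0.33), Sin3a (-0.22) and Ddx5 (-0.21). Over all tested genes, 9.24% passed upward and 11.7% downward. When each of the 12 libraries was left out in turn, some of these calls were lost. Timeless and Sin3a each lost the call on leaving out any single one of 10 libraries, Wdr5 of 8, Fbxw11 of 5, Ddx5 of 4 and Prkaa2 of 3. Dbp and Csnk1e each lost it without 1 library, KO control replicate 2 (adjusted p = 0.0554 and 0.0569, edgeR). Without WT control replicate 3 the adjusted p was 0.0558 for Fbxw11 (0.21), 0.0825 for Wdr5 (0.24) and 0.061 for Timeless (-0.34), and the highest adjusted p without any one library was 0.0951, 0.12 and 0.116 for these genes, 0.12 for Sin3a and 0.0701 for Ddx5. Groups of 3 libraries were too small for a test of single outlying libraries.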

How the results depend on the processing

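For the 8 repressor genes in 5 comparisons, 851 values were recomputed under 22 alternatives, and 813 kept their direction and their side of the threshold, 14 lost a call, 9 gained one and 15 changed sign. The counts of genes that passed stayed within 1.5 times the values reported, at 3 to 5, 6 to 7, 2 to 4, 4 to 5 and 5 to 6 when each library was left out (WT senescence, KO senescence, interaction, KO against WT control, KO against WT senescent). Total counts alone turned Csnk1d to 0.0705 and Csnk1e to 0.0925 in WT senescence and Per3 to 0.0105 in KO senescence. Upper-quartile factors turned Csnk1e to 0.00904 and the fit of only the 6 compared libraries turned Cry1 to -0.00713, both in WT senescence. Leaving out a library gave sign changes in values that had not passed, with ranges of -0.0839 to 0.11 for Cry1 and -0.00034 to 0.20 for Cry2 in WT senescence, -0.16 to 0.0536 for the Ciart interaction, -0.22 to 0.0472 for Per3 between control cells and -0.0128 to 0.13 for Per1 between senescent cells. The cause of these changes was not tested. Ciart has no value under a filter at 5 CPM. Csnk1d in WT senescence reached an adjusted p of 0.05 with DESeq2 size factors in edgeR. Of the 11 repressor complex partners, 5 passed in the interaction, 3 with DESeq2 and 2 with DESeq2 size factors in edgeR.

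The labels give every group the replicate numbers 1 to 3. Deviations from the group means correlated at r = -0.125 to 0.127 for the 18 pairs of libraries with the same number and -0.191 to 0.173 for the 36 other pairs. No pairing by number was seen, but means of 3 libraries are too few to settle whether the libraries were paired. With a replicate block, 5 genes passed between control cells in place of 4, Per1 being added (0.22, adjusted p = 0.04, edgeR), and no other call changed.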

Other observations

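All cultures received dexamethasone, and 8 genes of the glucocorticoid response, 7 of them known as induced targets and the other being Nr3c1, which encodes the receptor, were read beside Per1. With senescence 5 of the 8 rose and 2 fell in WT cells, where 29.2% and 27% of all tested genes did (median log2 change 0.57, all tested genes 0.0245), and 6 rose and 1 fell in KO cells, against 28.5% and 28.6% (median 0.48, all tested genes -0.00275). These counts include Nr3c1, which rose by 0.28 ± 0.06 in WT (adjusted p = 0.000227) and 0.18 ± 0.06 in KO cells (adjusted p = 0.00767). Fkbp5, a chaperone of the receptor, fell in both genotypes, by 1.76 on the log2 scale in WT (-1.76 ± 0.08, adjusted p = 2.24e-13, edgeR) and 1.63 in KO cells (-1.63 ± 0.08, adjusted p = 5.69e-13). Zbtb16, a zinc finger gene, rose in both (2.33 ± 0.25, adjusted p = 6.95e-08, and 1.28 ± 0.27, adjusted p = 0.000372), as did the phosphatase gene Dusp1 (0.86 ± 0.06 and 1.73 ± 0.06, adjusted p = 8.97e-11 and 1.82e-15). The responses differed between genotypes for Dusp1 (interaction 0.88 ± 0.08, adjusted p = 1.07e-06) and Errfi1 (0.66 ± 0.08, adjusted p = 1.17e-05). Errfi1 fell in WT cells (-0.51 ± 0.05, adjusted p = 7.61e-08) and rose in KO cells (0.15 ± 0.05, adjusted p = 0.023). Zbtb16 had an interaction of -1.04 ± 0.37 (adjusted p = 0.0522). It missed the threshold but passed on leaving out any single one of 4 libraries. With DESeq2 the interaction passed upward for 3 of the 8 and downward for 2. Between control cells 1 of the 8 was higher and 2 lower in KO, against 8.07% and 4.96% of all tested genes, with Tsc22d3 at 1.19 ± 0.17 (adjusted p = 0.000844) and Dusp1 at -0.73 ± 0.06 (adjusted p = 4.2e-08). Between senescent cells 2 were higher and 1 lower in KO, against 11.9% and 11.8%. The lower one was Zbtb16 (-1.51 ± 0.23, adjusted p = 5.65e-05).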
